A study of Mus musculus with 5 samples.

Results

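The regions described here are those listed for acetylation of histone H3 at lysine 27 (H3K27ac) over input in neuronal nuclei of the mouse striatum. All lines of the authors' H3K27ac list were taken, 14337 lines that hold 9781 unique regions of 38941 regions in the 4 lists of the study. The regions were listed for 10822 of 21031 protein-coding genes (51.5%, exact 95% interval 50.8 to 52.1%). Nuclei came from 8-week-old C57BL/6 mice with no treatment or altered gene named in the labels, and were sorted on NeuN, a protein of the nuclei of most neurons. The labels call the cells medium spiny neurons, although sorting on NeuN does not separate these from other striatal neurons. Chromatin was precipitated with an antibody to H3K27ac (Abcam AB4729), and the other libraries were H3K4me3, H3K27me3, RNA polymerase II (Pol II) and the input of the same nuclei. Each antibody had 1 library, so there were no replicates and no test across samples was possible. Intervals given here cover counting error over genes or regions only, and the read depth behind each region is unknown.

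H3K27ac is placed by acetyltransferases such as p300 and CBP and is removed by histone deacetylases. It is found at active promoters and enhancers, where bromodomain proteins bind acetylated lysines, and it cannot share the same lysine with H3K27me3, the mark of the Polycomb repressive complex. The deposited list holds regions near transcription start sites, so distal enhancers appear here where they join a promoter region. Medium spiny neurons are the GABAergic projection neurons of the striatum and make up most of its neurons. They use dopamine receptors, cyclic AMP and calcium signalling, with proteins such as Ppp1r1b (DARPP-32) and Pde10a.

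Promoter sequences of genes from different places in the list are shown first, because their base composition differed along the list. They are RefSeq promoter windows of build GRCm38.p6, from 250 bases before to 50 bases after the annotated gene start, and the capitals mark every CpG dinucleotide. Arid1b had the second highest H3K27ac score, Gad1, which makes the transmitter GABA, a high score, Bcl11b the second widest region and Aplf the lowest score, shared with Commd9. Alb, the albumin gene of liver, had no region.
Arid1b promoter (GRCm38.p6 chr17:4994824-4995123, plus strand): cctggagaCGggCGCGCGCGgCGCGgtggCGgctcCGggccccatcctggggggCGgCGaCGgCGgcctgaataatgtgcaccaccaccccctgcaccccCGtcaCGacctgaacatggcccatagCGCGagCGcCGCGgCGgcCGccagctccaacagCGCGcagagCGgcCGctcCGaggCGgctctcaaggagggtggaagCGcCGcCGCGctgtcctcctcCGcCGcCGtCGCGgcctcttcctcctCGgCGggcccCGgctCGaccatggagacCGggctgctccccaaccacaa
Gad1 promoter (GRCm38.p6 chr2:70561879-70562178, plus strand): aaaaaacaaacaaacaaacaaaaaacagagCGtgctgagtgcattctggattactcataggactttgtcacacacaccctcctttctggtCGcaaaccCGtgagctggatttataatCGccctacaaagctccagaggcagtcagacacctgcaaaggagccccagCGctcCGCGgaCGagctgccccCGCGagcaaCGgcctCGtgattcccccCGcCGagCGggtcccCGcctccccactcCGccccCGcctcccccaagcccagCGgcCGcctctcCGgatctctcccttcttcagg
Bcl11b promoter (GRCm38.p6 chr12:108003365-108003664, minus strand): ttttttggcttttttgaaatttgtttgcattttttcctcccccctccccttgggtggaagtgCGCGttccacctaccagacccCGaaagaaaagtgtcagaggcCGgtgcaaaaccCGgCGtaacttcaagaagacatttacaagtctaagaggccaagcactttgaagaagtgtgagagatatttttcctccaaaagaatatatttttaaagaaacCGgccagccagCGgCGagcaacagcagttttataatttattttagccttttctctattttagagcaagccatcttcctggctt
Aplf promoter (GRCm38.p6 chr6:87672112-87672411, minus strand): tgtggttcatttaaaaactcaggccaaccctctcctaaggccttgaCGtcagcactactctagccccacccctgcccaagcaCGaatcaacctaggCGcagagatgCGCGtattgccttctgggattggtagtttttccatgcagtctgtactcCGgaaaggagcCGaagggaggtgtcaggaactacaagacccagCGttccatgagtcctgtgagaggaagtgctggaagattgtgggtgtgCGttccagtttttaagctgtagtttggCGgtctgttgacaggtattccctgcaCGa
Alb promoter (GRCm38.p6 chr5:90460620-90460919, plus strand): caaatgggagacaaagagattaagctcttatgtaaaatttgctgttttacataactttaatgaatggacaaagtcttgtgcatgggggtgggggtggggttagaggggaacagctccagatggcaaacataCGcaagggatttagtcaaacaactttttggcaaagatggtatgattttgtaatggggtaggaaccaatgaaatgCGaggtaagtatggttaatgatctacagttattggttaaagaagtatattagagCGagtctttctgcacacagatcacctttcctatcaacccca
The Arid1b window held 42 CpGs and 75.3% G and C bases, and that of Gad1 held 21 CpGs and 60% G and C bases. The Bcl11b window held 9 CpGs at 43.0% G and C bases, and that of Aplf held 11 CpGs at 52.3%. The Alb window held 3 CpGs at 40% G and C bases. The window is that of the annotated start and need not be the start used in these nuclei. In the Arid1b window an ATG is followed by codons without a stop up to its end. Part of that window may therefore be protein-coding, and its base composition need not be that of a promoter.

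Several microRNA genes had regions in which no coding gene was listed, and the mature products of those with the highest scores are shown with the seed, bases 2 to 8, in capitals. miR-9, miR-124 and miR-137 are known from neurons, and let-7 from differentiated cells in general. Of the 8 leading genes, 5 had a mature sequence in the RefSeq table (GRCm38.p6).
mmu-miR-760-3p: cGGCUCUGggucugugggga
mmu-miR-9-5p: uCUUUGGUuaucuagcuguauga
mmu-let-7i-5p: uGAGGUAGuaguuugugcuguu
mmu-miR-137-3p: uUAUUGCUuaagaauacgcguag
The 4 seeds differed from each other. Mir760 had a score of 12.8 in a region of 7.1 kb, Mir9-2 had 11.7 in 28.2 kb and Mir9-3 had 7.82 in 14.3 kb. Mir9-2 and Mir9-3 give the same mature sequences, so this product had 2 acetylated genes. Mirlet7i had a score of 9.78 and Mir137 one of 8.43. The 3 copies Mir124a-1, Mir124a-3 and Mir124a-2 had scores of 10.8, 10.02 and 9.84, with widths of 17.2, 10.1 and 16.9 kb. In all, 86 microRNA genes were listed, of which 42 (48.8%) lay in regions without a coding gene, at a median score of 3.74.

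The score that the authors gave each region over input ran from 2.0 to 18.8, with a median of 4.03 and quartiles of 3.03 and 5.59. Its scale is not given in the sources used here, and it is used only to describe and rank regions within this list. The distribution was skewed to high scores, with 2359 regions (24.1%) under 3 and 245 (2.5%) over 10. Widths were far more even. The median was 5300 bp, the quartiles were 4900 and 5900 bp, and 5277 regions (54.0%) measured 5 to 6 kb. The narrowest region measured 2500 bp and the widest 79200 bp, with 281 regions (2.87%) over 10 kb and 20 (0.204%) over 20 kb. In the H3K4me3 list 14.8% of regions were wider than 10 kb, in the H3K27me3 list 58.0% and in the Pol II list 2.65%. By this share H3K27ac (2.87%) was close to Pol II. The lists' names state 3 kb up and down from transcription starts, and whether that window set the widths was not tested. Score and width rose together (Spearman's rho 0.880 over 9781 regions, Pearson's r of score with log2 width 0.691). Both values come from the same library and the same regions, so the relation is a description.

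**Figure D1:**
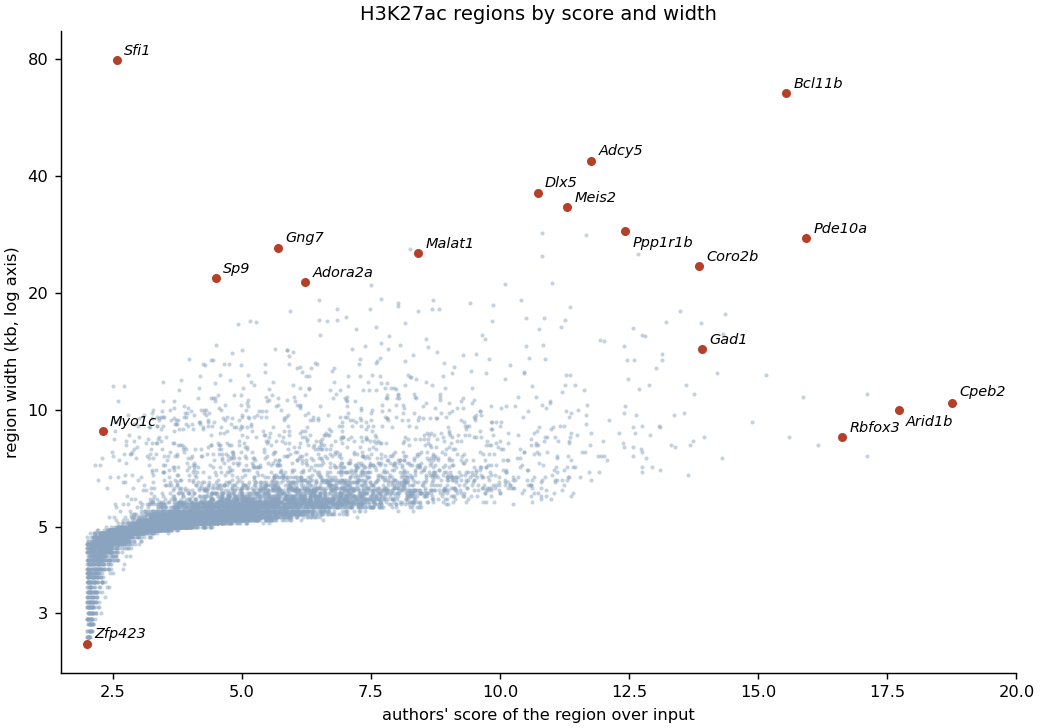
Each point is 1 of the 9781 H3K27ac regions, with the authors' score over input on the x axis and width in kb on a log y axis, and named genes in red. Narrow regions follow a rising band from 2.5 to about 7 kb, and a sparse set lies above it, from Sfi1 (79.2 kb at a score of 2.58) to Bcl11b (65.3 kb at 15.5).

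The highest score, 18.8, belonged to a region of 10.4 kb (mm9 chr5:43621501-43631900) with Cpeb2, which encodes an RNA-binding regulator of polyadenylation and translation, and the noncoding gene Gm7854. Arid1b, which encodes a subunit of BAF chromatin remodellers, followed at 17.7 (chr17:4991801-5001800). Zc3h4, which limits noncoding transcription, and Atp2b1, a calcium pump of the plasma membrane, both had 17.1. Rbfox3 encodes NeuN itself and had 16.6. Pknox2, a homeodomain factor, had 16.2, and Spry2, an inhibitor of receptor tyrosine kinase signalling, had 15.9. Some genes of the first 20 regions act in calcium signalling. They were grouped after their values were seen, without a share over all regions. Camk2n1, an inhibitor of the kinase CaMKII, had a score of 15.6, Cacna2d3, an auxiliary calcium channel subunit, had 15.2, and Ppp3ca, the catalytic subunit of calcineurin, had 14.4. Dnmt3a, a DNA methyltransferase, had 14.9, the arginine methyltransferase gene Prmt8 had 14.3, and Ubtf, a factor of ribosomal RNA transcription, had 13.9. Gad1, the enzyme that makes GABA, had 13.9. Mtcl1, which binds microtubules, had 14.3, Insyn1, of inhibitory synapses, had 14.2, and the actin-binding genes Dmtn and Coro2b each had 13.9. Pde10a and Bcl11b also stood among the 20. Each of these 20 regions had a coding gene with a Pol II region, against 79.2% of all listed coding genes, and 0 of 20 had one with an H3K27me3 region, against 20.2%. Of these regions 12 of 20 exceeded 10 kb, against 2.87% of all regions, and 3 belonged to the 20 widest.

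The 20 widest regions were mostly not the 20 with the highest scores. Bcl11b (CTIP2), a factor needed for medium spiny neuron differentiation, lay in 65.3 kb (chr12:109184301-109249600). Adcy5, the main adenylyl cyclase of the striatum, had 43.7 kb, Dlx5 with Dlx6 36.2 kb, and Meis2 33.2 kb. Dlx and Meis factors act in the development of GABAergic and striatal neurons. A region of 28.9 kb was listed for Ppp1r1b, Stard3 and Neurod2 together, so the score of 12.4 belongs to the region and cannot be assigned to 1 of these genes. Bcl11a had 28.5 kb, Pde10a 27.6 kb and Pou3f3 21.1 kb. Rap1gap, a regulator of the GTPase Rap1, had 25.9 kb, the nuclear noncoding RNA gene Malat1 25.3 kb, Mn1 24.8 kb, Coro2b 23.4 kb and the phosphodiesterase gene Pde1b 21.2 kb. Of the 20 widest regions, 16 stood in the top 10% of regions by score. The other 4 were those of Gng7, a G protein subunit of striatal neurons (26.1 kb at a score of 5.71), Adora2a, the adenosine receptor of indirect pathway neurons (21.3 kb at 6.23), Sp9, a factor of the same neurons (21.8 kb at 4.50), and Sfi1. The region of Sfi1 with Eif4enif1, Pisd-ps1 and Pisd-ps3 spanned 79.2 kb at a score of 2.58. Pisd-ps1 and Pisd-ps3 are annotated as pseudogenes, and how reads from repeated sequence were placed is not given in the sources used here. It was the only one of the 20 widest whose coding genes all lacked a Pol II region. Among coding genes of the 20 widest regions, H3K27me3 was listed at Adora2a (94.5 kb), Neurod2 (31.9 kb), Sp9 (24.2 kb), Sfi1 (8.3 kb) and Mn1 (6.6 kb). Of all listed coding genes 20.2% had an H3K27me3 region.

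Widths of the same genes in the other lists differed from gene to gene. At Pde10a the H3K27ac region of 27.6 kb stood beside an H3K4me3 region of 109.7 kb and a Pol II region of 193.2 kb. At Adcy5 the H3K27ac and H3K4me3 regions were nearly equal, at 43.7 and 44.5 kb, and the Pol II region measured 105.2 kb. Bcl11b had 65.3 kb of H3K27ac, 73.9 kb of H3K4me3 and 48.1 kb of Pol II. At Coro2b the H3K27ac region was wider than both others, with 23.4 kb against 15.1 kb of H3K4me3 and 5.5 kb of Pol II.

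The 10 lowest scores, all 2.0 when rounded, lay at the limit of the list, below which no region was listed. They belonged to Aplf, of DNA end joining, Commd9, Lsm10, a protein of histone pre-mRNA processing, Tigd3, Ftsj1, a transfer RNA methyltransferase, Ikzf1, a factor of lymphocytes, Zfp93, Bcl2l12 with Irf3, Zfp423 and Rilp with Scarf1. Their widths ran from 2.5 kb at Zfp423 to 4.7 kb at Lsm10. In 3 of the 10 regions a coding gene had H3K27me3, at Commd9 (70.5 kb), Ikzf1 (28.7 kb) and Zfp423 (248.6 kb). In 1 of 10, that of Rilp and Scarf1, a coding gene had Pol II. Of all listed coding genes 20.2% had H3K27me3 and 79.2% had Pol II. In the lowest 10% of these genes by score the shares were 44.2% and 27.9%.

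Some regions departed from the joint rise of score and width. In the bottom 10% by score, Myo1c, a myosin of the cell membrane, had 8.8 kb at a score of 2.31, and Nrp2, a semaphorin receptor, had 7.5 kb at 2.29. Nrp2 also had 63.0 kb of H3K27me3, and Nfix (6.3 kb of H3K27ac) had 111.6 kb. Wipf3 with 7.2 kb and Apod with 6.6 kb of H3K27ac had neither of the other histone marks and no Pol II listed. In the top 10%, 103 regions (10.5%) were narrower than 6 kb. The narrowest 10 measured 5.5 or 5.6 kb and included those of Atp5g3, a subunit of the mitochondrial ATP synthase (score 8.02), Rab6a with Mrpl48 (7.50), Slc35d1, a nucleotide sugar transporter (8.30), and Tmsb4x, which binds actin (7.55). Dcun1d1, Faxc, Pgap4, Me3, Trpc1 and Efcab2 were the others.

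Most regions were listed for 1 gene. Of the 9781, 8203 (83.9%) had 1 gene, 1438 had 2 and 133 had 3 or more, while 7 had none in the gene table. Genes on both strands shared 1336 regions (13.7%). These regions rarely stood at either end of the score range, with 5.69% of them in the top 10% and 5.91% in the bottom 10%. For regions with genes on the plus strand only, the shares were 10.7% and 10.01%. A region of 7 genes held Mir17hg with the miR-17 to miR-92 cluster (score 4.54), and another held Rps2, Ndufb10, Rnf151, Rpl3l and small nucleolar RNA genes (3.73). A cluster of 5 histone genes, H2ac7, H2ac8, H2bc7, H2bc8 and H3c4, shared a region with a score of 3.23. Conversely 236 genes (2.18%) had 2 or 3 separate regions, and 3 were listed for Celf2, Dnajc6, Dpp6, Pde4dip and Prickle2, named after their values were seen.

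Regions for lncRNA genes were mostly shared with coding genes. Of 227 such genes, 71 (31.3%) lay in regions without a coding gene, at a median score of 3.95. The highest of these were 2900079G21Rik, with 12.9 in 11.6 kb, and C130071C03Rik, the host of Mir9-2. Gm7854 and Dlx6os1 took their values from the regions of Cpeb2 and Dlx5. These names were chosen after their values were seen.

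H3K27ac regions lay almost wholly within H3K4me3 regions. By position, 9755 of 9781 (99.7%, exact 95% interval 99.6 to 99.8%) overlapped an H3K4me3 region by at least 1 bp, and 9416 (96.3%) were covered from end to end. In the other direction, 72.8% of H3K4me3 regions overlapped H3K27ac. Both lists hold regions near the same transcription starts, so regions of a shared gene tend to overlap, and 10803 coding genes were in both. Pol II regions overlapped 7585 H3K27ac regions (77.5%), and 97.2% of Pol II regions overlapped H3K27ac. For H3K27me3 the number was 1640 (16.8%), with a median of 32.7% of the acetylated region covered and 311 regions (3.18%) covered wholly. Edges were compared where the region's genes lay on 1 strand and it met a single region of the other list. At 8418 such regions H3K4me3 reached a median of 300 bp further upstream and 800 bp further downstream than H3K27ac, and in 77.1% the downstream reach was the longer. Genes on the plus strand (4233 regions) and the minus strand (4185 regions) gave the same medians. Over 6412 regions compared with Pol II, the median Pol II edge lay at -100 bp upstream and -400 bp downstream, which is inside the acetylated region. In both comparisons the median displacement was larger on the downstream side, outward for H3K4me3 and inward for Pol II. How the cutoff and read depth of each list moved its edges was not tested.

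**Figure D2:**
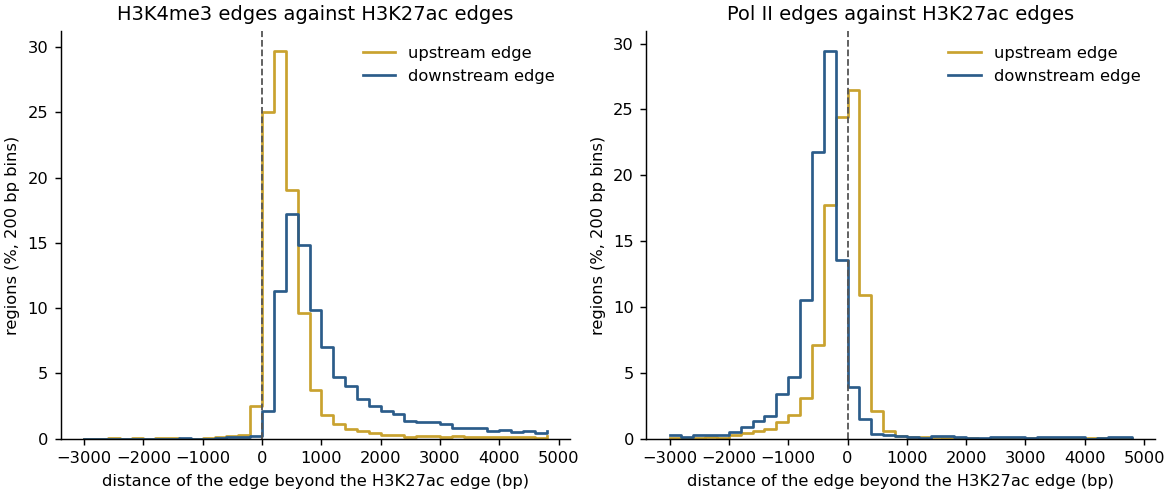
The x axis is how far the edge of the overlapping H3K4me3 (left, 8418 regions) or Pol II region (right, 6412) lies beyond the H3K27ac edge in bp, and the y axis the percent of regions in bins of 200 bp. Downstream H3K4me3 edges spread to several kb beyond the acetylated region (median 800 bp), while the median Pol II edge lies inside it, further at the downstream edge (-400 bp) than at the upstream one (-100 bp).

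Coding genes were placed in 10 equal bins of the H3K27ac score, each gene taking its highest region. In the lowest bin 302 of 1083 genes had Pol II (27.9%, exact 95% interval 25.2 to 30.7%), in the fourth 81.3% and in the highest 1080 of 1082 (99.8%, interval 99.3 to 99.98%). H3K27me3 went the other way, with 479 genes in the lowest bin (44.2%, interval 41.2 to 47.2%) and 40 in the highest (3.70%, interval 2.65 to 5.0%). Each bin had a higher Pol II share and a lower H3K27me3 share than the bin below it. H3K4me3 was near its ceiling throughout, at 98.4% in the lowest bin and 100% from the fourth bin on. Its regions widened along the score, from a median of 5800 bp in the lowest bin to 9800 bp in the highest, while the acetylated regions themselves, in 10 equal bins of regions, went from 4300 to 7000 bp. Among genes without an H3K27ac region, 6748 of 10209 (66.1%) had H3K27me3. Over genes in both lists, the H3K27ac score went with the H3K4me3 score (Spearman's rho 0.70, 10803 genes) and with the Pol II score (0.669, 8566 genes). The lists share the input library and the same start sites, and these correlations are descriptions.

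**Figure D3:**
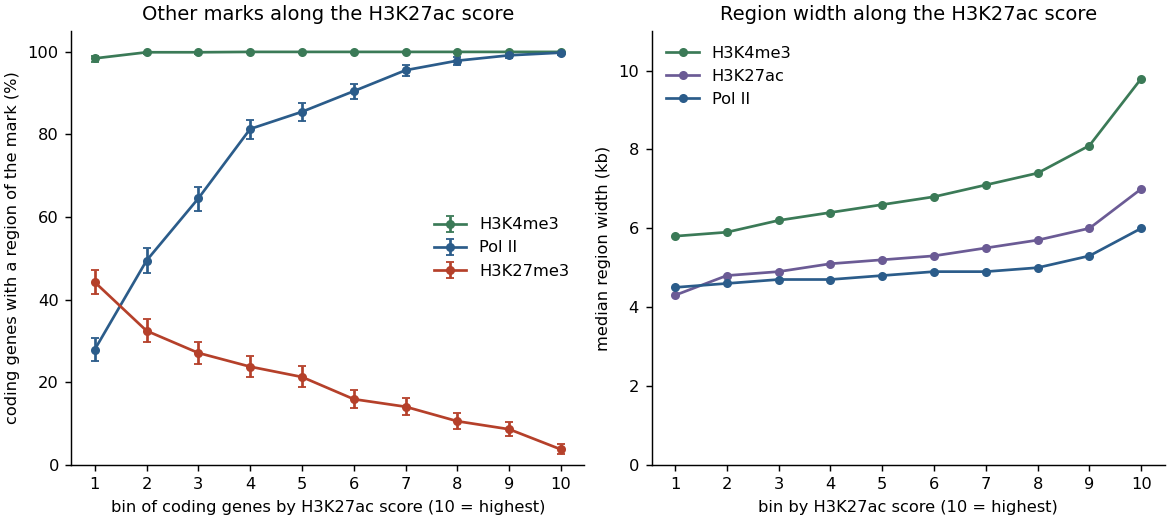
Left, percent of coding genes in each of 10 equal bins by H3K27ac score that have a region of the other mark, with exact 95% intervals, and right, median region width in kb by bin (bins of regions for H3K27ac, of coding genes for the others). Pol II rises from 27.9% to 99.8%, H3K27me3 falls from 44.2% to 3.70%, and the H3K4me3 median widens from 5.8 to 9.8 kb.

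The exceptions were few and were named after their values were seen. In the top 10% Fndc5, which encodes the precursor of irisin (score 8.23), and Kdelr3, a receptor that returns proteins to the endoplasmic reticulum (11.3), had no Pol II region. The region of 17.0 kb was listed for Kdelr3 together with the potassium channel gene Kcnj4, so its score cannot be assigned to Kdelr3 alone, and Kdelr3 also had H3K27me3 over 7.9 kb. The 40 genes of the top 10% with H3K27me3 were led by Neurod2 through the shared Ppp1r1b region (H3K27ac score 12.4, H3K27me3 over 31.9 kb). Ajap1, a protein of adherens junctions, had H3K27ac over 9.8 kb and H3K27me3 over 108.6 kb, and Adgrb1, an adhesion receptor of synapses, had the marks over 8 and 10 kb. Gnal, the G protein subunit that couples the striatal dopamine receptor Drd1 to adenylyl cyclase, had 2 separate H3K27ac regions. The wider measured 12.3 kb, and H3K27me3 was listed over 4.7 kb. The marks were joined by gene here, so their regions need not overlap. Whether both marks lay in the same nuclei or on the same allele was not tested. H3K4me3 was missing at 19 genes, 17 of them in the lowest bin, and the others were Myh7 (score 2.92) and Tmprss4 (2.83).

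The label was compared with marker genes. All 25 pan-neuronal and all 29 medium spiny neuron genes had an H3K27ac region, against 51.5% of coding genes. In the medium spiny neuron list the median score was 10.2 against 4.06 over all listed coding genes. By score 22 of 29 stood in the top 10% (10% of listed genes), and 21 had a region wider than 10 kb (3.43% of listed genes). Dlx5 and Dlx6 were counted separately here although they share a region. Ppp1r1b took the values of its region with Stard3 and Neurod2. After Pde10a (15.9), Bcl11b (15.5) and Gad1 came Ngef, a guanine nucleotide exchange factor (13.8), and others that included Rasd2 (Rhes, 12.6). Itpr1, an intracellular calcium channel (5.65), Foxp2 (5.27), Arpp19 (4.42) and Actn2 (4.17) were the lowest. Among pan-neuronal genes Gria2, a glutamate receptor subunit, had 11.4 and Camk2b 11.3, while Map2 had 3.89 and Elavl4 2.56.

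Genes of the 2 output pathways were acetylated at moderate scores and mostly carried H3K27me3 as well. In the direct pathway list 8 of 9 genes had H3K27ac, at a median of 4.61, and all 8 also had H3K27me3, against 20.2% of listed coding genes. The dopamine receptor gene Drd1 had a score of 7.78, the muscarinic receptor gene Chrm4 6.92, Slc35d3 6.70, and Tac1, the substance P precursor, 5.23. Isl1 had 3.99, Sfxn1 3.92, Ebf1 3.60 and Eya1 2.64, and the peptide gene Pdyn had H3K27me3 and no H3K27ac. In the indirect pathway list 9 of 9 had H3K27ac, at a median of 5.43, and 8 had H3K27me3, against the same 20.2%. Grik3 had 7.42, the dopamine receptor gene Drd2 6.38, Gpr6 5.73, Penk, the enkephalin precursor, 5.43, Ptprm 5.10 and Upb1 2.74. Gpr52 (4.14) was the gene of that list without H3K27me3. Fewer nuclei with the mark and less of the mark per nucleus cannot be told apart in sorted pools.

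Markers of other cells were mostly unlisted. The interneuron list had 1 of 15 genes, Cck, at a score of 2.23. Chat, Slc18a3, Slc5a7, Sst, Npy, Nos1, Pvalb, Calb2, Lhx6, Nkx2-1, Th, Vip, Lhx8 and Htr3a had no region, and 13 of these 14 had H3K27me3, against 66.1% of all coding genes without an H3K27ac region. Interneurons also carry NeuN, so sorting would not remove them. Of 13 astrocyte genes 5 were listed, led by Slc4a4 (5.74) and Glul, the glutamine synthetase gene (4.54), then Slc1a2 (3.67), Aldoc (2.17) and Sox9 (2.01). Gfap, Aqp4, Aldh1l1, Slc1a3, Gja1, Gjb6, S100b and Fgfr3 had none. Oligodendrocytes had Mbp (7.01) and Cnp (3.43) of 16 genes, with Mog, Mag, Olig1, Olig2 and Sox10 among the 14 unlisted. Microglia had 2 of 16, Cd68 (2.79) among them, and vessels Vtn (3.91) of 14. Liver had 1 of 20 genes (Apoa2), muscle 3 (Acta1, Myh7 and Ryr1), blood 3 (Epor, Klf1 and Lck) and germline 3 (Dazl, Gdf9 and Tnp2), at scores of 3.99 or less. Of 30 neuronal and glial bHLH and homeobox factors that act in development, 2 were listed, Atoh7 (3.38) among them, and the other 28, Neurog1, Neurog2 and Pax6 among them, all had H3K27me3, against 66.1% of coding genes without a region.

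In all, 44 lists with 1030 entries were described, and 33 had a larger share of listed genes than coding genes in general. Whether a gene was listed and how high it scored separated the lists differently. The Pol II subunit (12 of 12) and spliceosome core (30 of 30) lists were complete at medians of 3.22 and 3.47, below the 4.06 of all listed genes. The other complete lists, such as translation initiation (33 of 33, median 4.27), had medians above it. A gene in a region shared by several genes takes the score of that region. Of the 265 entries without a region 215 (81.1%) had H3K27me3, against 66.1% of all coding genes without a region, 17 had H3K4me3 without H3K27me3, and 33 had no region of any antibody. For the last group the files do not show whether their transcripts were searched.

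**Figure D4:**
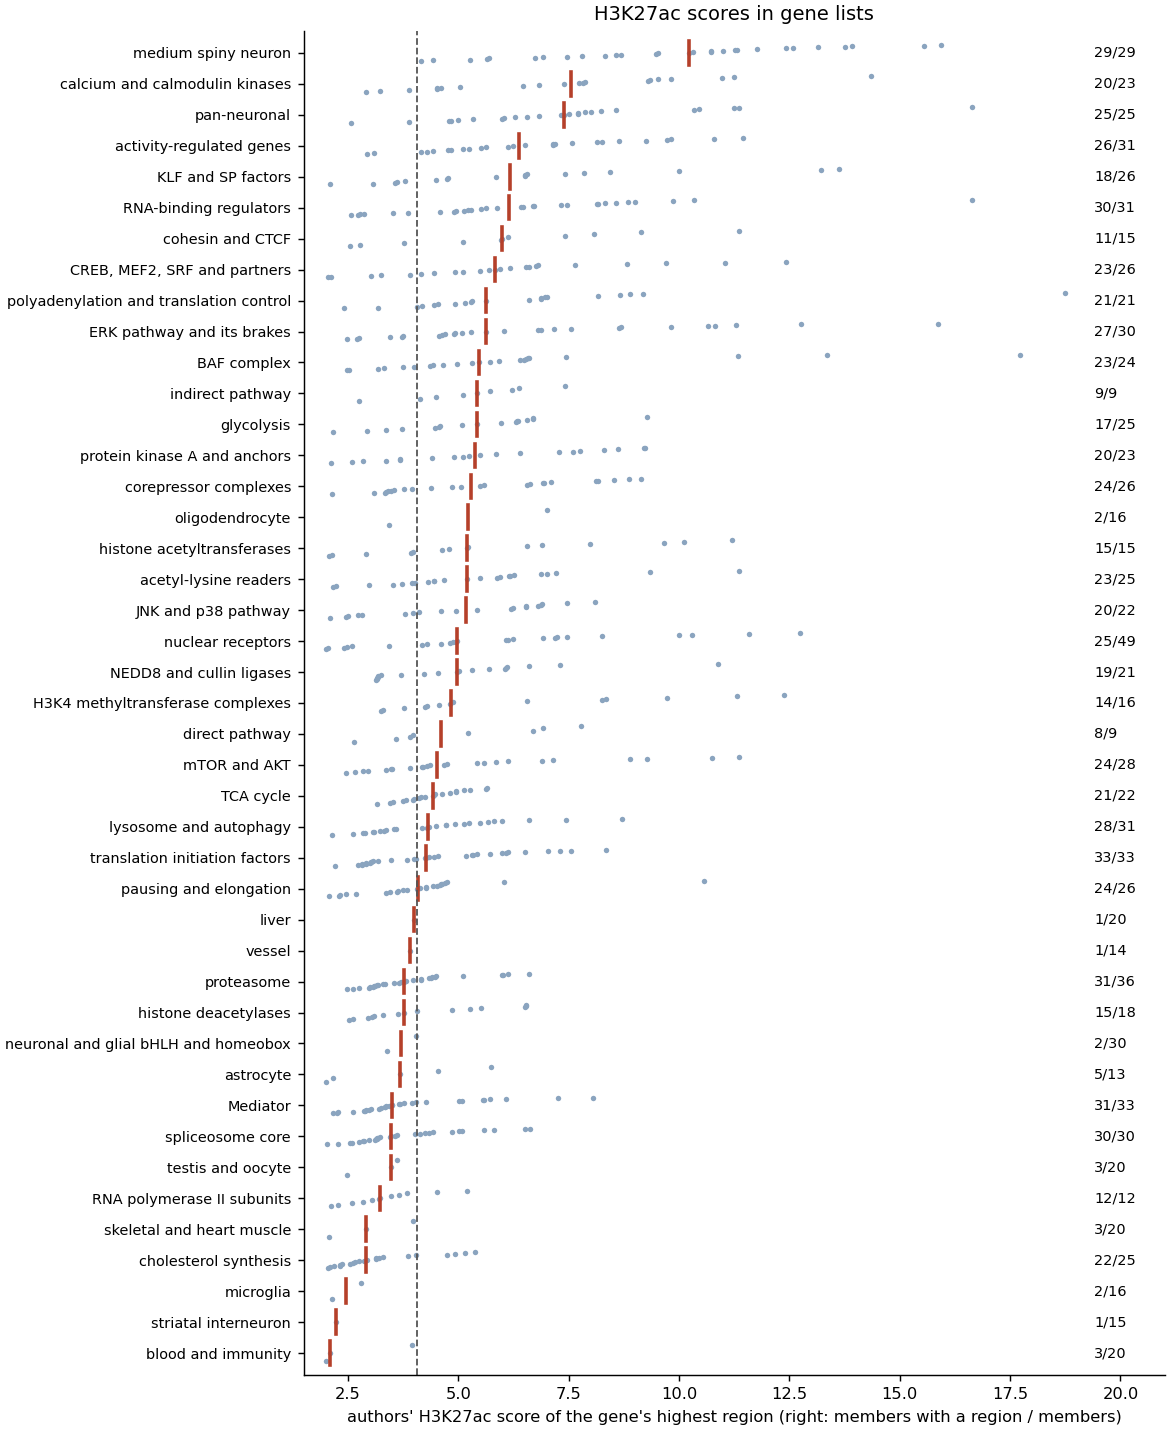
Each point is a listed member of a gene list at the authors' H3K27ac score of its highest region, red bars are list medians (1 list is not shown), the dashed line is the median of all listed coding genes (4.06) and the numbers at right are members with a region of all members. Medium spiny neuron genes lie furthest right (median 10.2), whereas the complete Pol II subunit (12/12) and spliceosome (30/30) lists have medians below the line.

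The enzymes that write and erase acetylation differed in score. All 15 acetyltransferase genes were listed, at a median of 5.19 with 4 in the top 10%. Ep300 (p300) had 11.2, Kat6b 10.1, Clock 9.65, Naa60 7.98, and Crebbp (CBP), the paralog of Ep300, 6.90. Ncoa1 had 6.56, Kat6a 5.22, Ncoa3 5.19, Kat2b 4.79, Kat7 4.62, Kat2a 3.98, Kat5 3.92 and Kat8 2.92. Taf1 (2.14) and Hat1, a cytoplasmic enzyme for new histones (2.08), stood in the bottom 10% without Pol II. Of 18 deacetylase genes 15 were listed, at a median of 3.77 with 0 in the top 10%. Hdac11 (6.54), Sirt1 (6.53), Hdac2 (6.51), Hdac3 (5.52) and Hdac5 (5.27) led them, and Hdac1 and Hdac9 were unlisted but had H3K4me3, while Hdac4 had no region of any antibody. Readers of acetyl-lysine had 23 of 25 genes listed, at a median of 5.19, led by Brd2 (11.4) and Phip (9.35), with Brd9 at 2.16. Brdt, a bromodomain gene of testis, and Cecr2 were unlisted and had H3K27me3. Corepressor genes had 24 of 26 listed, with Tbl1xr1 at 9.15, Chd3 at 8.87 and Gatad2a at 2.15, and Rest and Gatad2b unlisted.

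Within chromatin complexes scores differed widely between subunits. In the BAF list (23 of 24 listed, median 5.46) Arid1b (17.7), its paralog Arid1a (13.4) and Arid2 (11.3) led, followed by Smarcd1 at 7.45. Pbrm1 (3.17), Dpf3 (2.52) and Bcl7c (2.48) were at the other end. Among H3K4 methyltransferase complexes (14 of 16 listed, median 4.84) Kmt2e had 12.4, the demethylase gene Kdm6a 11.3, and the catalytic genes Kmt2c, Kmt2d and Kmt2a 9.72, 8.36 and 8.25. The core subunits Wdr5 (4.29), Dpy30 (4.25), Rbbp5 (3.77) and Ash2l (3.25) were lower, as were Men1 (4.87), Kmt2b (4.81), Paxip1 (4.56) and Cxxc1 (3.29), with Setd1a between at 6.55. In the cohesin list (11 of 15 listed, median 5.98) Stag2 had 11.4, the loader Nipbl 9.14, Stag1 8.08 and Ctcf 7.42. Pds5a had 6.13, Wapl 5.98, Smc3 5.97, Mau2 5.11 and Pds5b 3.78, while the ring subunits Rad21 and Smc1a had 2.77 and 2.56. The meiotic members Smc1b, Stag3 and Rec8 and the testis paralog Ctcfl had H3K27me3 and no H3K27ac.

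The general transcription and splicing machinery was listed nearly in full, with medians below or close to that of all listed genes. The 12 Pol II subunit genes had a median of 3.22 and 0 in the top 10%, from Polr2h at 5.21 and Polr2b at 4.52 down to Polr2g at 2.29 and Polr2e at 2.11, with Polr2a, the largest subunit, at 3.65. All 30 spliceosome core genes were listed at a median of 3.47, also with 0 in the top 10%, led by Sf3a2 (6.63) and U2af2 (6.51, in a region shared with Ccdc106 and Zfp580) and ending with Snrnp200 (2.27) and Prpf3 (2.02). Mediator had 31 of 33 genes at a median of 3.50. The highest were Med13l at 8.05, Med12l at 7.26, Med13 at 6.08, Med26 at 5.72, Med14 at 5.59 and the kinase gene Cdk8 at 5.56, whereas Med1 had 2.17 and Med12 and Med24 were unlisted. Elongation factors had 24 of 26 at a median of 4.10, led by Aff4, a scaffold of the super elongation complex (10.6), with the pausing factor gene Nelfcd at 2.07. Regulators of RNA differed from this machinery, with 30 of 31 RNA-binding genes listed at a median of 6.15 and 10 in the top 10%. Some of these genes, such as Rbfox3 and Celf4, are also in the pan-neuronal list. Celf4 had 10.3, Celf5 9.86, Qk 9.01 and Nova1 8.84, while Elavl2 had 2.76. Among 21 genes of polyadenylation and translation control, all listed at a median of 5.63, the paralogs Cpeb2, Cpeb4, Cpeb3 and Cpeb1 had 18.8, 8.16, 7.02 and 2.41. The microRNA effectors Tnrc6c and Ago2 had 9.20 and 8.67. All 33 translation initiation genes were listed at a median of 4.27, from Eif4g2 (8.35) and Eif4a2 (7.55) down to Eif6 (2.21).

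Lists of protein turnover and metabolism had medians on both sides of the 4.06 of all listed coding genes. The proteasome had 31 of 36 genes at a median of 3.77 with 0 in the top 10%, led by Psma7 (6.60). Unlisted were Psma8 of testis, Psmb6, the immunoproteasome genes Psmb8 and Psmb9, and Psmb11 of thymus. Cullin ligase genes had 19 of 21 at 4.98, led by Cul1 (10.9), and lysosome and autophagy genes 28 of 31 at 4.32, led by Gabarapl1 (8.72). Of 22 tricarboxylic acid cycle genes 21 were listed, in a narrow range from Cs, the citrate synthase gene (3.17), to Dlst (5.65). Glycolysis had 17 of 25 at a median of 5.43, led by Aldoa (9.28), Gapdh (6.70), Pkm (6.70) and the neuronal enolase gene Eno2 (6.57). Isoform genes of other tissues, Hk2, Hk3, Pgk2, Pgam2, Pklr and Ldhc, had H3K27me3 and no H3K27ac, and Gapdhs of sperm was unlisted with H3K4me3. Cholesterol synthesis had the lowest median among lists of 20 or more listed genes, 2.90, with 22 of 25 listed, 0 in the top 10% and 6 in the bottom 10%. Its regulators Srebf2 (5.38) and Insig2 (4.74) and the enzyme gene Cyp51 (4.92) were among the highest, and Nsdhl (2.09) was among the lowest.

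The signalling lists named here had medians above 4.06. Calcium and calmodulin genes had 20 of 23 listed at a median of 7.56 with 11 in the top 10%, the highest median after that of medium spiny neuron genes. After Ppp3ca (14.4) and Camk2b came genes that included the calcineurin regulator Rcan2 (9.83), Camk4 (9.52) and the calmodulin gene Calm2 (9.34). The CaMKII paralogs Camk2d (3.24) and Camk2g (2.92) were at the low end. In the ERK list, 27 of 30 listed at a median of 5.62, the 6 highest were all negative regulators of MAP kinase signalling. They were Spry2 (15.9), Spred1 (12.8), Dusp8 (11.3), Spred2 (10.8), Dusp7 (10.7) and Dusp6 (9.83). The kinases Map2k2 (3.45) and Mapk3 (ERK1, 2.75), the phosphatase gene Dusp2 (2.71) and the GTPase gene Nras (2.49) were the lowest. Protein kinase A genes had 20 of 23 listed at 5.37, led by the regulatory subunits Prkar1a (9.24) and Prkar2b (9.21) and the anchor Akap5 (8.62), with Akap12 at 2.13. The mTOR and AKT list had 24 of 28 at 4.52, with Foxo3 (10.8) and Foxo1 (9.28) among the highest, and JNK and p38 genes 20 of 22 at 5.18, led by Mapk14 (p38 alpha, 8.09).

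Nuclear receptors had 25 of 49 listed (51.0%), close to the 51.5% of all coding genes, at a median of 4.98. The thyroid hormone receptor genes Thra (12.8) and Thrb (9.99), the mineralocorticoid and glucocorticoid receptor genes Nr3c2 (11.6) and Nr3c1 (10.3), Rora (8.27) and Rarb (7.47) led. Esrrg (2.01), Rara (2.05), Ppard (2.40) and Pparg (2.48) had low scores and also H3K27me3, and 9 of the 25 listed and 21 of the 24 unlisted genes had H3K27me3, against 20.2% of listed and 66.1% of unlisted coding genes. KLF and SP factors had 18 of 26 at 6.18, led by Sp3 (13.6), Klf9 (13.2), Klf7 (9.996) and Klf5 (8.44), with Klf2, Klf14, Klf17, Sp5 and Sp6 unlisted and carrying H3K27me3. Activity-regulated genes, which neurons induce on firing, had 26 of 31 at 6.37 with 9 in the top 10%. Jund (11.5), Ier5 (10.8), Vgf (9.82), Junb (9.72), Homer1 (9.25) and Dusp1 (8.64) led, Npas4 had 4.29 over 13.0 kb, and Fos had 2.93. Bdnf, Nr4a2, Ier2, Fosl1 and Maff had H3K27me3 and no H3K27ac. Among CREB, MEF2 and SRF factors, 23 of 26 listed at 5.83, Srf had 11.04, Mef2a 9.70, Mef2d 8.82 and Creb1 7.65. Mef2c had no region of any antibody.

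Families of genes with a shared symbol stem gave the same spread without chosen lists. Of 212 families with 12 or more members, 114 had a larger share listed than all coding genes and 27 had no member listed. All 14 Ift genes of ciliary transport and all 14 Ndufa genes of respiratory complex I were listed, as were 34 of 35 Vps, 29 of 30 Tbc, 28 of 29 Ap and 28 of 29 Mrps genes. Their median scores were modest, from 3.50 for Ift to 4.38 for Ap. The 27 families without a region held 1649 genes. The largest was Olfr, the odorant receptors, with 0 of 1108, which allows a share of up to 0.271%. Next came the keratin-associated genes Krtap (0 of 56), Pramel (0 of 35), Scgb (0 of 34), Rhox (0 of 31) and the defensin genes Defa (0 of 28). Among 134 families with 8 or more listed members, the calcium channel genes Cacna had the highest median, 8.88, with 12 of 14 listed and 7 in the top 10%, named after its value was seen.

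Product names gave a further view of function along the score, with word classes chosen after the data were seen. Genes named as channels (109 listed) had a median of 5.45 and 29.4% in the top 10%, against 10% of listed coding genes. Homeobox proteins (28) had 5.12 and 28.6%, and E3 ubiquitin ligases (119) 5.06 and 20.2%. Phosphatases (196) had 4.56 and 17.9%, and protein kinases (479) 4.46 and 13.6%. At the other end, mitochondrial proteins (315) had 3.61 and 3.17%, ribosomal proteins (171) 3.65 and 2.92%, and dehydrogenases (129) 3.77 and 3.10%. Histones (56) had 3.23, with 26.8% in the bottom 10%. Some histone genes share a region and its score, so the 56 are not separate values. Of 66 genes in a word class that included transfer RNA synthetases, 0 stood in the top 10%. This class was set by words in product names and may hold other products.

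By chromosome, chromosome 12 had the highest share of coding genes with H3K27ac, 64.8% (exact 95% interval 61.0 to 68.6%). Chromosome X had 39.4% (36.2 to 42.7%) and chromosome 7 40.6% (38.4 to 42.8%), while 1 of 78 genes was listed on Y. Median scores differed less, from 3.71 on X to 4.41 on chromosome 1 among chromosomes other than Y.

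Promoter composition was compared in 14153 coding genes with a single RefSeq window, 6914 of them listed, in 5 equal bins of the score. Genes without a region had a median of 49.3% G and C bases and 4 CpGs in the 300 bases. The lowest bin had 59.0% and 18 CpGs, and the highest 67.3% and 28 CpGs. An observed over expected CpG ratio above 0.6 was found in 18% of unlisted genes, 70.5% of the lowest bin and 84.1% of the highest. Alb and Aplf, printed above, had ratios of 0.272 and 0.537, and Arid1b had 0.996. Bcl11b, with 43.0% G and C bases, was a low value among highly acetylated genes.

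Motifs were counted as exact letters on either strand, as a description that shows no binding, and they share base composition with the windows. The GC box GGGCGG, bound by Sp and Klf factors, was found in 46.8% of all windows, in 25.5% of unlisted genes, in 63.4% of the lowest bin and in 75.1% of the highest. TATAAA went the other way, with 14.2% of all windows, 21.8% of unlisted genes, 7.66% of the lowest bin and 4.70% of the highest. The ETS letters CCGGAAG were most frequent in the middle of the list. They were found in 12.2% of all windows, in 4.59% of unlisted genes, and in 20.03, 24.6, 24.1, 19.5 and 12.7% from the lowest to the highest bin. The YY1 letters AAGATGGCG followed a like course, with 2.10% of all windows, 0.483% of unlisted genes, 2.68% of the lowest bin, 4.99% of the middle bin and 2.46% of the highest. For the NRF1 letters GCATGCGC the shares were 3.67% of all windows, 1.01% of unlisted genes, 5.71% of the lowest bin, 7.81% of the second and 4.56% of the highest. CCAAT, bound by NF-Y, was found in 39.96% of all windows and differed little between unlisted (40.8%) and listed genes (39.0%), but ran from 45.1% in the lowest bin to 33.7% in the highest. The E-box CACGTG was in 7.96% of all windows, 5.51% of unlisted and 10.5% of listed genes. The AP-1 letters TGANTCA were in 7.23% of all windows, 10.7% of unlisted and 3.56% of listed genes, and the CRE TGACGTCA in 2.37%, 1.06% and 3.75%. Gad1, printed above, held both a GC box and TATAAA, Bcl11b held TATAAA, and Aplf held a CRE and CCAAT.

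**Figure D5:**
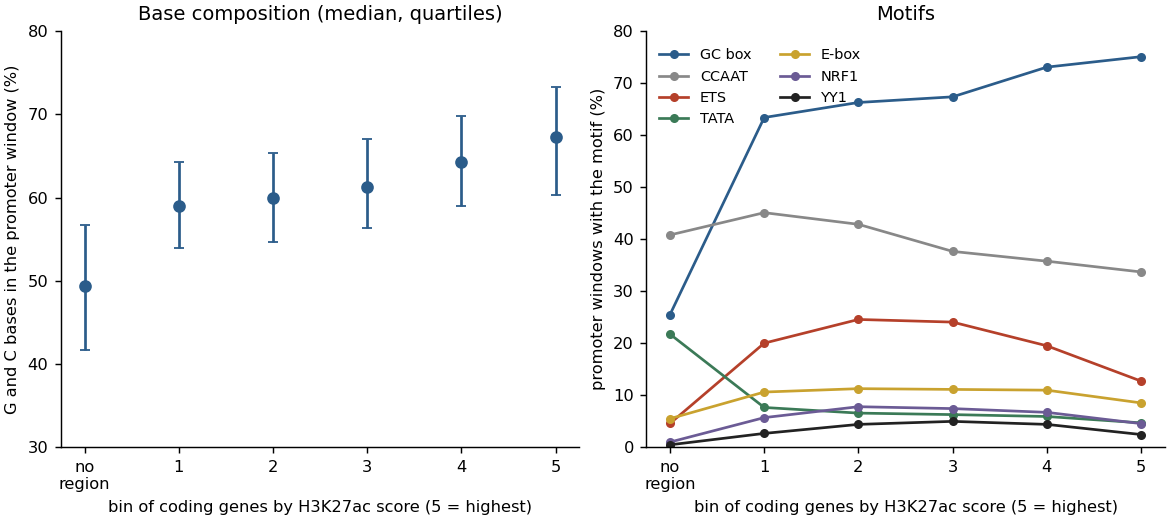
Left, percent of G and C bases in RefSeq promoter windows (points are medians, bars the quartiles) for coding genes without an H3K27ac region and in 5 equal bins by score, and right, percent of windows with each motif. G and C content climbs from 49.3 to 67.3%, the GC box from 25.5 to 75.1%, TATA falls from 21.8 to 4.70%, and ETS, NRF1 and YY1 are highest in the second or middle bin.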

How the data were processed

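Chromatin immunoprecipitation libraries of sorted NeuN+ striatal nuclei were described from the authors' region lists, 1 library per antibody and 1 input. The submitters' processing notes name Bowtie 0.12.7, MACS 1.4 and the build mm9 without saying which step each served. The deposited score is the authors' value of a region over input. Its scale is not given in the sources used here. The lists' names state 3 kb up and down from transcription starts, and bounds lie on a grid of 100 bp. Read depth is unknown, so a gene without a region is one not listed, and how depth moves that limit was not tested.

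Unique regions were taken by chromosome, start and end, and a gene took its highest score. Of the lines, 98.0% matched a RefSeq gene of GRCm38.p6 by accession, the rest by symbol, and 0.244% matched none. Shares carry exact (Clopper-Pearson) 95% intervals. The limit for a count of 0 is 3 counts. Region positions are mm9, counted from 1, and promoter windows are GRCm38.p6. These were joined by symbol only. Overlaps (1 bp or more) used bedtools 2.31.1, and values were computed with pandas 2.3.3, numpy 2.4.6, scipy 1.17.1 (Python 3.11.15) and drawn with matplotlib 3.10.9. The equal bins, the shares within them and the values per gene were tested on simulated data. The other statistics were not.

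Members, gene lists and tests were chosen with earlier results of these data known. Genes named were those of the 20 highest, 20 widest and 10 lowest regions, the 10 regions with the most genes, the 10 widest of the bottom 10% and 10 narrowest of the top 10% by score. Of each list up to 6 highest, 4 lowest and 6 unlisted members could be named, or every member of a list of 16 or fewer, and of symbol families the 6 with the highest and 6 with the lowest share, the largest first where shares were equal. Product classes, and the removal of predicted genes named Gm from the families, were chosen after the data were seen. The NRF1 and YY1 motifs were shortened then and another motif was dropped. A few genes and 1 list that fit these rules are not reported here.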

Additional observations from a re-analysis of the deposited data

How the results depend on the processing

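With the upper 50% of regions by score, 5492 coding genes (26.1%) were listed, the median width was 5800 bp, and Spearman's rho of score and width was 0.661. Of all 18244 genes with a region of any of the 4 antibodies, 59.3% had H3K27ac. In bins of width rather than score, the Pol II share differed by 66.7 points between the highest and lowest bin (71.9 by score), and promoter G and C content by 6 points (8.33 by score, 9.67 with regions listed for 1 gene). With the upper 50% of every list, overlap by position was 90.8% for H3K4me3, 4.15% for H3K27me3 and 67.0% for Pol II. An overlap of at least 0.5 of the narrower region left 6.18% for H3K27me3. Fewer regions by construction lower these counts. The cause of the other shifts was not tested. Relative to all coding genes, 41 of 44 lists kept the sign of their share in the upper 50% by score, and 43 of 44 with regions listed for 1 gene. RNA polymerase II subunits became -9.45 points (48.5 with all regions), cholesterol synthesis -6.11 points (36.5), and nuclear receptors 12.7 points, or 7.03 points with regions listed for 1 gene (-0.44 with all regions). All 44 kept the sign of their median score with the median over a gene's regions. No paired analysis was possible because each antibody had 1 library and no replicate numbers. The score's scale and the read depth limit every comparison here to ranks within 1 list.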
